A study of Mus musculus with 12 samples.

Results

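RNA from cells sorted as bone marrow endothelial cells held the transcripts of eosinophil granules in every library. The 9 genes described here, *Prg2*, *Prg3*, *Epx*, *Ear1*, *Ear2*, *Ear6*, *Il5ra*, *Siglecf* and *Alox15*, are 9 of the 55421 genes in the count table. They were selected on their counts in all 12 libraries by group and matched from symbol to Ensembl identifier, so their levels and differences between groups are given as a description and support nothing by themselves. The study compared marrow endothelium of naive controls with that of mice with hypertension, atherosclerosis or MI. Each of the 4 groups held 3 mice, each mouse gave one library, and the libraries of a group carry the replicate numbers 2, 3 and 4. Total counts per library were between 17007088 and 25136936.

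All mice were 20 weeks old per the labels. Controls were naive C57BL/6J mice. Mice with hypertension were C57BL/6J mice given the pressor peptide angiotensin II chronically, delivered by minipump per the study's methods. Mice with atherosclerosis carried the Apoe(tm1Unc) allele, which abolishes apolipoprotein E, and received a western diet per the study's methods, so that genotype and diet cannot be told apart in this group. Mice with MI were C57BL/6J mice sampled 2 days after infarction per the labels, and the study's text names a different day. The study's methods describe magnetic depletion of lineage-positive cells, with CD11b among the antigens, and a sort of TER-119- CD41- CD45- CD31hi SCA-1+ cells. The same 3 controls served in each of the 3 comparisons. *Apoe*, the targeted gene, was at 10.6 ± 3.81 CPM (counts brought to one library size with TMM factors; SD, n = 3) in *Apoe*-/- mice and at 781 ± 98.4 CPM in controls (SD, n = 3).

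Eosinophils are granulocytes that mature in the bone marrow under interleukin-5. They carry CD45 and CD11b on their surface, and their granules hold a crystalline core of major basic protein surrounded by a peroxidase and small cationic ribonucleases. GATA and C/EBP transcription factors drive the lineage, and granule transcripts are made mostly in immature cells in the marrow, before the mature cell leaves for the tissues. *Prg2* encodes major basic protein, *Prg3* its homolog, *Epx* eosinophil peroxidase, and *Ear1*, *Ear2* and *Ear6* ribonucleases of the eosinophil-associated family. *Il5ra* encodes the ligand-binding chain of the interleukin-5 receptor, *Siglecf* an inhibitory sialic acid-binding receptor, and *Alox15* a lipoxygenase that oxygenates polyunsaturated fatty acids. *Prg2* is also transcribed by basophils and mast cells, and *Alox15* by resident macrophages, so the genes are not all private to eosinophils.

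On the mouse build GRCm38, *Prg2* (ENSMUSG00000027073) lies at chr2:84980461-84983632 and *Prg3* (ENSMUSG00000027072) next to it at chr2:84988215-84993886, both on the plus strand. The ribonuclease genes lie on chromosome 14, *Ear1* (ENSMUSG00000072601) at chr14:43818765-43875517 on the minus strand, *Ear2* (ENSMUSG00000072596) at chr14:44102654-44103534 and *Ear6* (ENSMUSG00000062148) at chr14:51853699-51854643 on the plus strand. *Epx* (ENSMUSG00000052234) at chr11:87864000-87875536 and *Alox15* (ENSMUSG00000018924) at chr11:70344152-70352031 share chromosome 11 and the minus strand. *Il5ra* (ENSMUSG00000005364) lies at chr6:106710357-106749037 on the minus strand. *Siglecf* (ENSMUSG00000039013) lies at chr7:43351341-43359531 on the plus strand, 23.7 Mb from *Apoe* on the same chromosome. All 9 are annotated as protein-coding.

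*Ear1* and *Ear2* need care because they are near copies. Their reference transcripts were 96.8% identical over 713 aligned bases, against 85.2% between *Ear1* and *Ear6*, 86.0% between *Ear2* and *Ear6* and 67.3% between *Prg2* and *Prg3*. Of the distinct 50-base stretches of the annotated transcripts, 57.4% in *Ear1* and 41.5% in *Ear2* also occurred in another gene, the pseudogene *Ear-ps9* and each other among them. This share was 0.954% in *Ear6*, 1.01% in *Il5ra*, 0.206% in *Siglecf* and 0 in *Prg2*, *Prg3*, *Epx* and *Alox15*. The annotated span of *Ear1* overlaps those of *Ear-ps9*, *Ear-ps12*, *Ang-ps2* and AC154806.1, and the span of *Ear2* overlaps that of Gm49101 on the opposite strand. Counts of *Ear1* and *Ear2* are therefore uncertain as to which of the 2 genes the reads came from.

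Of the 9 genes, 7 had a promoter entry in RefSeq on GRCm38.p6, and *Prg2* and *Alox15* did not. The 250 bases before the start are printed for *Ear1* and *Ear2*, whose near identity extends upstream of the gene (246 of 248 aligned bases, 99.2%), and for *Prg3* and *Il5ra*, which hold the short core of GATA factor sites. Capitals mark GATAA on either strand (TTATC where it reads on the other strand) in *Prg3* and *Il5ra*, and the C/EBP-like letters TTGCNNAA in *Ear1* and *Ear2*. Each sequence is written 5′ to 3′ in the direction of the gene.
Ear1, chr14:43819640-43819889, minus strand: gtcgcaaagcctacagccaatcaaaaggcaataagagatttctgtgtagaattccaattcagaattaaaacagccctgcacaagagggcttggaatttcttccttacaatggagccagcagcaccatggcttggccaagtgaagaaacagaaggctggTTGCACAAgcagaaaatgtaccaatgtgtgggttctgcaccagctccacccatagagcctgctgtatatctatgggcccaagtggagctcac
Ear2, chr14:44102404-44102653, plus strand: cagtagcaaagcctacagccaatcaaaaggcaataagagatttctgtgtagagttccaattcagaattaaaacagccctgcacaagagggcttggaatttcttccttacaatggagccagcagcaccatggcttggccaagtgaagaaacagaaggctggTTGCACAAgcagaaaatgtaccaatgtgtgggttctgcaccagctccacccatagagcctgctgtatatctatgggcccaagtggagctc
Prg3, chr2:84987965-84988214, plus strand: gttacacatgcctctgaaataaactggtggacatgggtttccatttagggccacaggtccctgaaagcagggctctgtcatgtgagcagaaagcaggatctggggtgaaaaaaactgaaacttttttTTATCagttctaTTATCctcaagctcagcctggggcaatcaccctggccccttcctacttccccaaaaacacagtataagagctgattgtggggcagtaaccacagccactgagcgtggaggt
Il5ra, chr6:106749038-106749287, minus strand: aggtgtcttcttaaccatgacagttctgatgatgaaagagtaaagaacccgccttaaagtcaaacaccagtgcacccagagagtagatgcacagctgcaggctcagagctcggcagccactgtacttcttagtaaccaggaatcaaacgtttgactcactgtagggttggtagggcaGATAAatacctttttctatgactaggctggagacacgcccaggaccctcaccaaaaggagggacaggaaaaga

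The motif GATAA, on either strand, was found in 2 of the 7 windows, with 2 matches in *Prg3* and 1 in *Il5ra*, and in 22.6% of all 32851 windows of this length. TTGCNNAA, on either strand, was found in 2 of 7, *Ear1* and *Ear2*, and in 9.56% of all windows. GAGGAA, the letters of a PU.1-like site, was found on either strand in 1 of 7, *Siglecf*, and in 23.3% of all windows. These motifs do not overlap each other in the printed windows. The RefSeq start of *Ear1* lies inside the longer span that GENCODE annotates for this gene.

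*Prg2* was among the most abundant transcripts of every library. It was at 9652, 8514 and 9091 CPM in the controls with replicate numbers 2, 3 and 4, at 7512, 12459 and 5138 CPM in hypertension, at 6924, 11143 and 6896 CPM in atherosclerosis and at 11207, 11490 and 8268 CPM after MI. The highest and the lowest library were thus both mice with hypertension, and each disease group overlapped the controls. In a single library *Prg2* took between 0.528% and 1.25% of all counts and ranked between 2 and 6 among all genes by counts. By mean CPM it ranked 4, behind *Ngp*, *Gpx1* and *Car2*.

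*Epx* followed at some distance. It was at 841, 1432 and 1816 CPM in controls, at 1134, 2147 and 836 CPM in hypertension, at 1448, 1094 and 1532 CPM in atherosclerosis and at 881, 1810 and 1123 CPM after MI. The 2 lowest libraries, hypertension replicate 4 and control replicate 2, came from different groups, and the control spread alone covered all of the atherosclerosis values. *Prg3* was at 165, 167 and 177 CPM in controls, at 126, 219.8 and 72.4 CPM in hypertension, at 128, 162 and 132 CPM in atherosclerosis and at 109, 187 and 132 CPM after MI. Controls lay close together for this gene, with a coefficient of variation of 3.93%, against 53.5% in hypertension, and all 3 atherosclerosis libraries lay below all 3 controls.

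Among the ribonucleases, *Ear6* was at 201, 193 and 225 CPM in controls, at 134, 280.2 and 93.9 CPM in hypertension, at 175, 188 and 169.7 CPM in atherosclerosis and at 138, 229 and 164 CPM after MI. As for *Prg3*, the atherosclerosis libraries lay below the controls without overlap, while the hypertension and MI libraries fell on both sides of them. *Ear1* was at 94.0, 79.5 and 104 CPM in controls, 59.3, 108 and 25.4 CPM in hypertension, 34.7, 79.2 and 81.0 CPM in atherosclerosis and 66.7, 94.0 and 65.5 CPM after MI. *Ear2* was at 86.4, 75.5 and 94.5 CPM in controls, 55.9, 92.4 and 29.6 CPM in hypertension, 39.7, 89.7 and 84.2 CPM in atherosclerosis and 70.7, 90.0 and 68.7 CPM after MI. Hypertension replicate 4 and atherosclerosis replicate 2 stood lowest in both genes, and every disease group overlapped the controls.

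The receptors were the least abundant of the 9 genes, with counts between 137 and 437 in any library. *Il5ra* was at 9.42, 12.2 and 14.9 CPM in controls, 9.53, 14.9 and 6.86 CPM in hypertension, 14.8, 9.51 and 12.6 CPM in atherosclerosis and 8.45, 13.2 and 10.8 CPM after MI. *Siglecf* was at 13.06, 13.16 and 16.95 CPM in controls, 11.03, 13.27 and 8.96 CPM in hypertension, 12.9, 12.6 and 21.5 CPM in atherosclerosis and 11.8, 16.7 and 10.7 CPM after MI. Both overlapped between controls and every disease group. *Alox15* was at 85.2, 111 and 209.6 CPM in controls, 76.0, 161 and 58.5 CPM in hypertension, 90.8, 105 and 241 CPM in atherosclerosis and 88.4, 119 and 88.1 CPM after MI. Its highest library, atherosclerosis replicate 4, was 4.12 times its lowest, and control replicate 4 came next, so that its 2 high values sat in different groups.

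**Figure D1:**
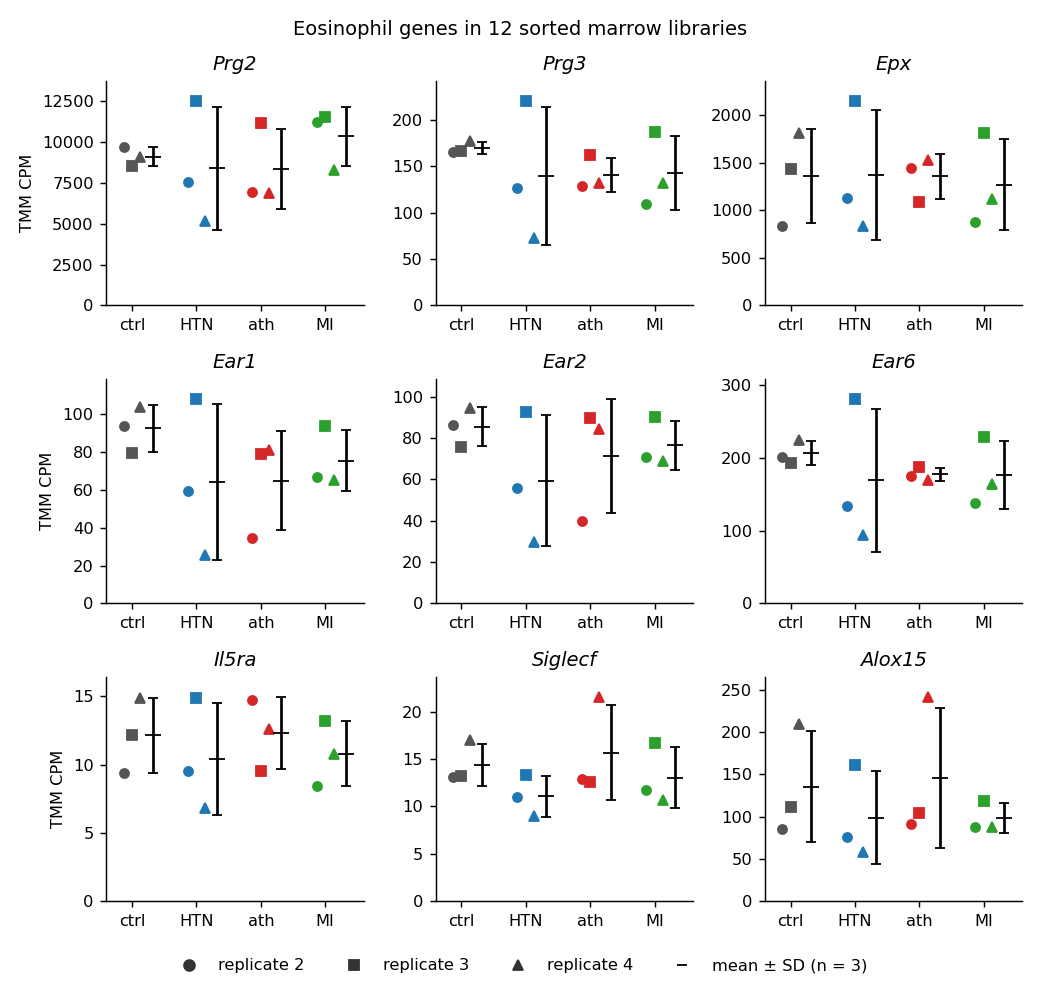
TMM-normalized CPM of the 9 genes (vertical axes, each from 0) in controls (ctrl), hypertension (HTN), atherosclerosis (ath) and MI; each point is one mouse, its shape gives the replicate number, and bars give the mean ± SD of 3 mice. All 9 genes are lowest in hypertension replicate 4, and 5 of them are highest in hypertension replicate 3.

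Per kilobase of annotated exon, the scale on which different genes can be compared, the median levels ran from 10720 CPM per kb for *Prg2* through 475 for *Epx*, 189.9 for *Ear6*, 154 for *Prg3*, 112 for *Ear2*, 106 for *Ear1*, 39.1 for *Alox15* and 4.68 for *Siglecf* to 3.26 for *Il5ra*. *Prg2* exceeded *Epx* by a median of 20.4 times. This order of neighbours held in 12 of 12 libraries at each step, except that *Ear2* lay above *Ear1* in 6 of 12 libraries, which left these near copies without an order. Summed, the 9 genes took between 0.645% and 1.55% of all counts. *Prg2*, which is not private to eosinophils, alone made up between 75.2% and 89.1% of that sum.

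Several libraries were high or low for most of the 9 genes at once. Every one of the 9 was at its lowest in hypertension replicate 4, and the highest library exceeded it by between 2.17 times for *Il5ra* and 4.24 times for *Ear1*. In hypertension replicate 3, 5 of the 9 reached their highest level and 2 their second highest. Averaged over the 9 genes, log2 CPM deviated from each gene's own mean by -0.90 in hypertension replicate 4, by 0.51 in hypertension replicate 3 and by 0.44 in control replicate 4. All 9 genes lay below their mean in the hypertension libraries 2 and 4 and in MI replicate 4, and all 9 lay above it in control replicate 4, hypertension replicate 3 and MI replicate 3. In bulk RNA of this kind, fewer eosinophil-lineage cells and less of these transcripts per cell cannot be told apart.

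**Figure D2:**
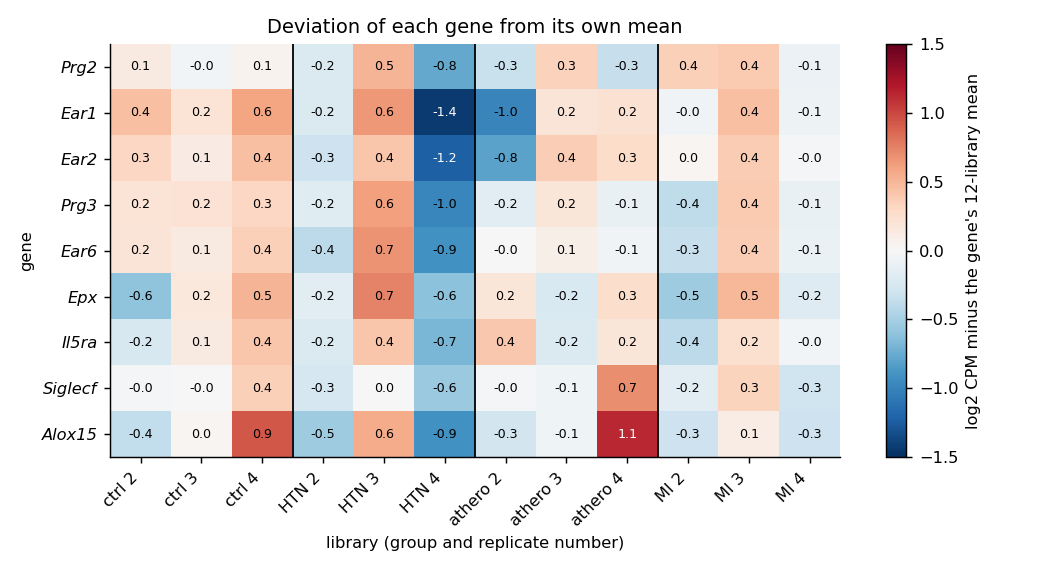
Log2 CPM of each gene (rows) in each of the 12 libraries (columns) minus the gene's mean over the libraries; red is above and blue below the mean, and black lines separate the groups. Hypertension replicate 4 is blue in every row, while the high values of *Siglecf* and *Alox15* in atherosclerosis replicate 4 are not shared by *Prg2*.

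Some pairs kept together far more closely than others. Over the 12 libraries, which share one scaling and differ in depth, Pearson's r of log2 CPM between the 36 pairs was between 0.25 and 0.98, with a median of 0.68. The closest pairs were *Ear1* and *Ear2* (r = 0.98), *Prg3* and *Ear6* (r = 0.97), *Epx* and *Il5ra* (r = 0.91) and *Siglecf* and *Alox15* (r = 0.89). The first of these pairs is of genes whose reads cannot be fully separated, and the other 3 each join genes on different chromosomes. With the 2 libraries farthest from the median of the 9-gene mean left out, these 4 values were 0.97, 0.93, 0.90 and 0.91, whereas the median over all 36 pairs fell to 0.49. *Prg2* was the least coupled to *Epx*, *Il5ra*, *Siglecf* and *Alox15*, with r between 0.25 and 0.32, and these became -0.23, -0.40, -0.12 and -0.18 without those 2 libraries. Per library, *Epx* counts amounted to between 7.86% of *Prg2* counts in MI replicate 2 and 22.2% in atherosclerosis replicate 4, and *Alox15* counts to between 0.789% and 3.49% in the same libraries.

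Hypertension was compared with naive controls. Raised pressure, the peptide and the implanted minipump cannot be told apart in this comparison. The median log2 fold change of the 9 genes was -0.29, with 8 of 9 below 0, and the values ran from -0.53 (SE 0.42) for *Ear1* to 0.01 (SE 0.37) for *Epx*. *Prg2* differed by -0.12 (SE 0.31). In the quasi-likelihood test of edgeR, with p adjusted over 15999 genes by Benjamini-Hochberg, 0 of the 9 had an adjusted p under 0.05, 0 had an unadjusted p under 0.05, and the smallest adjusted p was 0.951. The likelihood-ratio test and DESeq2 also called none of them in any of the 3 comparisons. Over all genes tested the same rule called 0% (0 genes, with 594 at an unadjusted p under 0.05), and the median log2 fold change was -0.01. None of the 9 lay without overlap above or below the controls, where 9.02% of all genes lay above and 7.81% below. The estimate depended on the 2 extreme hypertension libraries. Without replicate 3, all 9 genes lay below 0 (median -0.77), with *Prg2*, *Prg3* and *Ear6* at -0.52, -0.77 and -0.86. Without replicate 4, 4 of 9 lay below 0 (median 0.01), with *Prg2*, *Prg3*, *Epx*, *Ear6* and *Il5ra* at 0.14, 0.03, 0.27, 0.01 and 0.01. Adjusted p in the edgeR quasi-likelihood fit was at least 0.953 for each of the 9 in both cases. Unlike the 9 genes, the sum of 14 neutrophil genes was below the controls in all hypertension libraries. It was at 39442 to 56304 against 62213 to 81432 CPM of library totals, with 8 of the 14 below without overlap and 0 above. Its part in the values of the 9 genes was not tested.

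Atherosclerosis was compared with controls in the same way. The median log2 fold change of the 9 genes was -0.13, with 6 of 9 below 0, against 0.01 over all genes, and the values ran from -0.51 (SE 0.42) for *Ear1* to 0.12 (SE 0.25) for *Siglecf*. By the same edgeR quasi-likelihood test (Benjamini-Hochberg), 0 of 9 were called and 0 had an unadjusted p under 0.05, with a smallest adjusted p of 0.903, while 0.144% of all genes (23) were called. *Prg3*, at a log2 fold change of -0.27 (SE 0.31), and *Ear6*, at -0.22 (SE 0.31), were the 2 genes of the 9 whose libraries all lay below the controls, where 4.45% of all genes lay below and 5.06% above. The selection of the 9 genes used these counts, and nothing is read from that number. Without atherosclerosis replicate 4 all 9 lay below 0 (median -0.19), and without control replicate 4 it was 5 of 9 (median -0.12).

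After MI, the median log2 fold change of the 9 genes was -0.17, with 8 of 9 below 0, and the median over all genes was 0.00. Without control replicate 4 it was 5 of 9, with a median that rounds to 0, without MI replicate 2 it was 7 of 9 (median -0.07), and without MI replicate 3 it was 8 of 9 (median -0.44). *Alox15* was at -0.46 (SE 0.44) and *Prg2*, the single gene above 0, at 0.18 (SE 0.31). The edgeR quasi-likelihood test (Benjamini-Hochberg) called 0 of the 9 and 0% of all genes (0 genes, with 448 at an unadjusted p under 0.05). None of the 9 had an unadjusted p under 0.05, and none lay apart from the controls without overlap, where 4.27% of all genes lay above and 4.59% below. Between the disease groups, 0 of 9 were called in any of the 3 direct comparisons, in which 0.0625% of all genes were called between atherosclerosis and hypertension, 0% between MI and hypertension and 0.269% between MI and atherosclerosis. The SEs of the 9 genes were between 0.25 and 0.44. On simulated counts for the atherosclerosis comparison, run on 15734 genes, the same test recovered 38 of 100 genes raised by log2 1 and 88 of 100 genes raised by log2 2. It also called 7 unchanged genes. The raised genes were drawn at random from all filtered genes, so these rates are not those of the 9 genes.

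**Figure D3:**
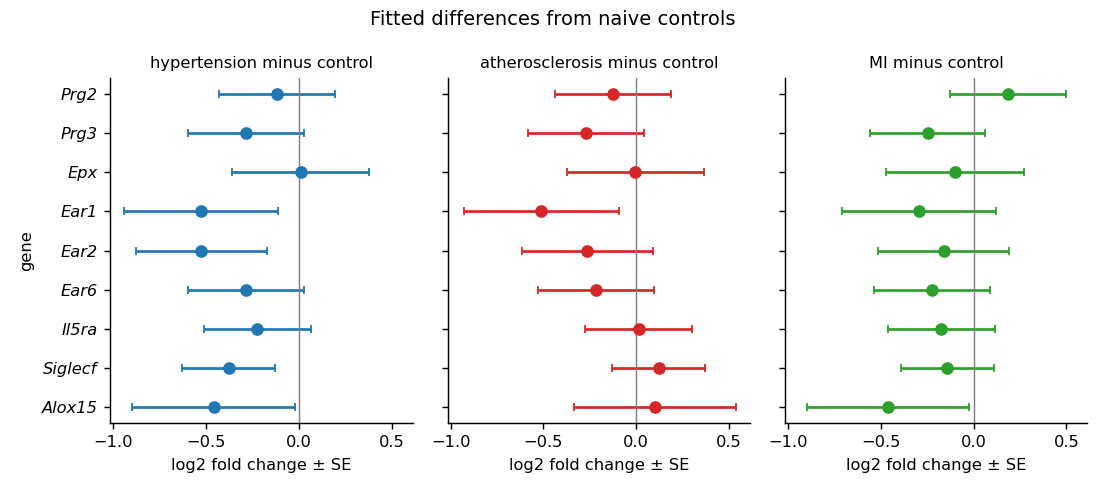
Fitted log2 fold change of each gene against naive controls (horizontal axis), with bars of 1 SE, in hypertension, atherosclerosis and MI; the grey line marks no difference. The points lie between -0.53 and 0.18, and 22 of the 27 are below 0 with no gene called in any panel.

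The wider eosinophil programme was described from a list of 51 genes by role, of which 43 were in the table and 32 had enough counts to be tested. Many of the listed genes are shared with other myeloid or erythroid cells, so their levels and calls cannot be assigned to eosinophils. In the ribonuclease family, 8 of the 10 listed genes beyond *Ear1*, *Ear2* and *Ear6* were not matched by symbol, and *Ear10* and *Ear14* had at most 3 counts in any library, so 0 were tested. Among the ligands, *Il5*, the growth factor of the lineage, and *Il3*, *Il25* and *Il13* had 0 counts in all libraries, and 3 of 11 could be tested. Among the tested genes, 0 of 9 receptors, 0 of 3 ligands and 0 of 8 lipid mediator genes passed the quasi-likelihood test in any comparison with controls. Of the 12 transcription factors, 1 passed, in atherosclerosis, where 0.144% of all genes did. An unadjusted p under 0.05 was reached by 2 of the 32 in the hypertension comparison, by 3 in the atherosclerosis comparison and by 1 in the MI comparison, that is by 6.25%, 9.38% and 3.12% of the list, against 3.71%, 5.97% and 2.80% of all genes tested. Over the 32 genes the median log2 fold change was -0.12 in hypertension, 0.08 in atherosclerosis and -0.07 after MI.

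The gene that passed was *Gata2*, a zinc finger factor of early progenitors, mast cells, basophils and eosinophils, among other cells. It was at 20.2, 18.4 and 22.1 CPM in controls, 26.5, 25.4 and 30.9 CPM in hypertension, 35.0, 44.0 and 46.6 CPM in atherosclerosis and 18.1, 22.3 and 25.8 CPM after MI. Atherosclerosis libraries thus lay above those of all other groups, and hypertension libraries above the controls. In atherosclerosis the log2 fold change was 1.05 (SE 0.17, adjusted p = 0.0342, edgeR quasi-likelihood, Benjamini-Hochberg), and the direct comparison of MI with atherosclerosis gave -0.92 (adjusted p = 0.041). In hypertension it was 0.45 (SE 0.17, adjusted p = 0.951). The call was lost with controls and atherosclerosis alone, at a log2 fold change of 1.05 and an adjusted p of 0.221. It was also lost without atherosclerosis replicate 3 or 4 or without any one of the controls, at log2 fold changes between 0.96 and 1.13 and adjusted p between 0.103 and 0.235. Markers of other cells moved with some of these groups. The sum of 10 macrophage genes lay above all controls in all atherosclerosis libraries, at 872 to 1000 against 541 to 656 CPM of library totals. Of the 10 genes, 6 lay above without overlap and 0 below, where 5.06% of all genes tested lay above and 4.45% below. In hypertension that sum was at 576 to 891 CPM and after MI at 502 to 678 CPM, both overlapping the controls. *C1qa*, a complement subunit made by macrophages, was at 60.2 ± 2.54 CPM in atherosclerosis and 30.7 ± 4.72 CPM in controls, without overlap (SD, n = 3 each). *Vcam1*, an adhesion receptor of marrow stroma and macrophages, was at 263 ± 47.9 and 197 ± 25.2 CPM (SD, n = 3 each). Its groups overlapped, at 208 to 297 CPM in atherosclerosis and 173 to 223 CPM in controls. The sum of 10 basophil and mast cell genes was higher than in controls in hypertension without overlap, with controls at 2202 to 3386, hypertension at 3668 to 4688, atherosclerosis at 2870 to 7483 and MI at 1080 to 3259 CPM of library totals, of which the basophil protease *Prss34* made up between 75.7% and 94.4%. Above the controls without overlap were 2 of the 10 genes in hypertension and 3 in atherosclerosis, with 0 below. Over all genes tested, 9.02% lay above and 7.81% below in hypertension, and 5.06% and 4.45% in atherosclerosis. In hypertension *Mcpt8*, another basophil protease, was at 72.6 ± 19.1 CPM against 72.7 ± 14.1 in controls (SD, n = 3 each). The 3 in atherosclerosis were *Cpa3*, *Ms4a2* and *Fcer1a*, and the rest of the list overlapped the controls there. *Cpa3* was at 31.9 to 39.6 CPM against 18.3 to 19.1 in controls. *Ms4a2* was at 16.5 to 26.5 against 10.6 to 14.4 CPM, and *Fcer1a* at 24.5 to 39.8 against 15.9 to 19.4 CPM. Atherosclerosis replicate 4, the library with the highest *Gata2*, had a list sum of 2870 CPM, within the control range, with these 3 genes above every control. *Tpsb2* and *Mcpt4*, which mark connective tissue mast cells, had a median of 0. A sum of 12 endothelial genes overlapped the controls in atherosclerosis, at 168 to 275 against 139 to 244 CPM of library totals. Of all 12 libraries it was highest in atherosclerosis replicate 4. In that group 2 of the 12 genes lay above the controls without overlap and 0 below. The part of any of these cell types in the *Gata2* result was not tested.

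In the other roles, the gene with the highest level per kilobase did not pass the test in any comparison. *Cebpb*, a C/EBP factor of myeloid cells, was at 862 ± 101 CPM in controls, 789 ± 142 in hypertension, 662 ± 215 in atherosclerosis and 835 ± 119 after MI (SD, n = 3 each). *Csf2ra*, a chain of the GM-CSF receptor, was at 458 ± 57.1, 467 ± 14.3, 384 ± 38.4 and 454 ± 111 CPM in the same order (SD, n = 3 each). *Ccl5*, a chemokine that attracts eosinophils through CCR3, was at 89.2 ± 20.5, 62.5 ± 21.8, 84.3 ± 28.1 and 56.5 ± 29.8 CPM (SD, n = 3 each). *Alox5ap*, which presents arachidonic acid to 5-lipoxygenase, was at 707 ± 97.7, 651 ± 62.2, 551 ± 83.2 and 988 ± 196 CPM (SD, n = 3 each), and its MI libraries lay above the controls with a log2 fold change of 0.48 (SE 0.19) and an adjusted p that rounds to 1.00 in the quasi-likelihood test.

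**Figure D4:**
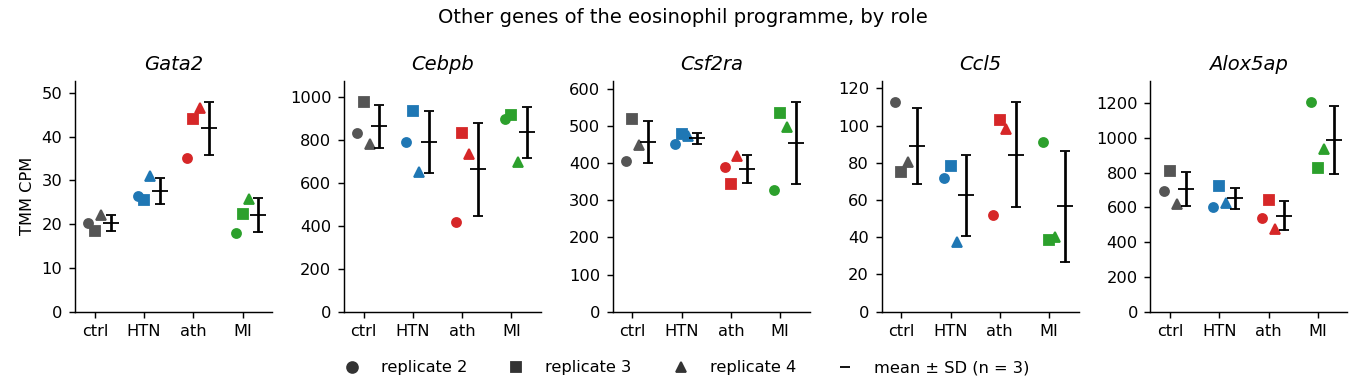
TMM-normalized CPM (vertical axes, each from 0) of *Gata2* and of the most abundant gene per kilobase among the transcription factors (*Cebpb*), receptors (*Csf2ra*), ligands (*Ccl5*) and lipid mediator genes (*Alox5ap*); each point is one mouse and bars give mean ± SD of 3. The 3 *Gata2* values in atherosclerosis, 35.0 to 46.6, are above all others.

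Markers of other marrow cells were summed beside these genes, as CPM without TMM factors. The endothelial list of 12 genes, *Cdh5* and *Pecam1* among them, summed to between 139 and 275 CPM, and the 9 eosinophil genes to between 35.2 and 87.9 times as much (median 56.9). Most of that 9-gene sum was *Prg2*, which other cells also transcribe. Without *Prg2* the sum was between 1131 and 3036 TMM-scaled CPM. None of these sums is corrected for transcript length. *Ptprc*, which encodes the CD45 antigen that the sort selected against, was between 463 and 814 TMM-scaled CPM in single libraries. *Pecam1*, which encodes the CD31 antigen it selected for, was between 17.2 and 31.8 TMM-scaled CPM. Per kilobase of annotated exon their medians were 31.6 and 3.23 CPM per kb. Sums over 14 neutrophil genes were between 36052 and 94207 CPM. The label of an endothelial cell preparation thus stood beside transcripts of granulocytes in every library. Over the 12 libraries, Pearson's r of a list's sum with the mean centred log2 CPM of the 6 granule genes was 0.49 for neutrophil genes (0.45 without the 2 farthest libraries), -0.25 for basophil and mast cell genes and 0.30 for endothelial genes, given as a description. The part of other cell types in the levels of the 9 genes was not tested.

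**Figure D5:**
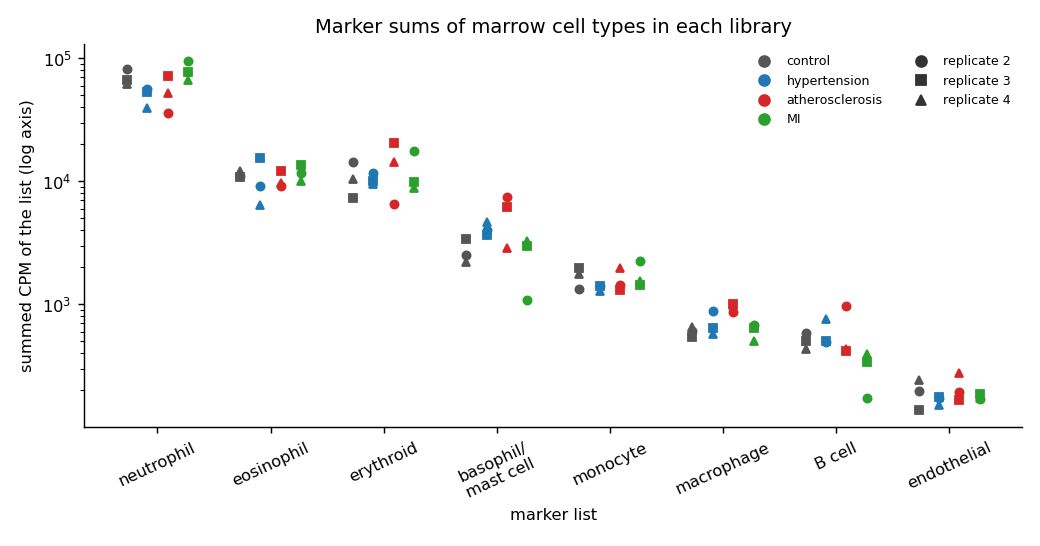
Summed CPM of marker lists of marrow cell types (log axis) in each of the 12 libraries, coloured by group with the replicate number as shape; the eosinophil list is the 9 genes with *Ccr3* and *Ear10*. The eosinophil sums lie below the neutrophil sums and above the endothelial sums, 139 to 275 CPM, in every library.

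The genes whose pattern was most like the mean of the granule genes were sought among the 15999 genes tested. The measure was Pearson's r over the 12 libraries with the mean centred log2 CPM of *Prg2*, *Prg3*, *Epx*, *Ear1*, *Ear2* and *Ear6*. This mean followed *Prg3*, *Ear6*, *Ear1* and *Ear2* (r between 0.93 and 0.96) more closely than *Prg2* (0.82) and *Epx* (0.69). Without the 2 farthest libraries, *Prg2* and *Epx* fell to r = 0.55 and 0.46. The near copies *Ear1* and *Ear2* both entered the mean. Outside the 9, the 10 closest were *Ldah* (r = 0.92), *Ear-ps9* (0.92), Gm43338 (0.90), *Pitpnb* (0.90), *Oser1* (0.89), *Gamt* (0.88), C130050O18Rik (0.87), D16Ertd472e (0.87), *Clic5* (0.86) and Gm47794 (0.85), and 32 genes lay above 0.8. *Ear-ps9*, the ribonuclease pseudogene at a mean of 0.718 CPM, shares 50-base stretches with *Ear1* and *Ear2* and overlaps *Ear1*. *Ldah*, which encodes a hydrolase of lipid droplets, was at a mean of 67.9 CPM and kept r = 0.89 without the 2 farthest libraries, and *Pitpnb*, a phosphatidylinositol transfer protein, was at 75.4 CPM and kept r = 0.86. *Clic5* fell to r = 0.51 without them. Of the 9, *Siglecf*, *Il5ra* and *Alox15*, which did not enter the mean, reached r = 0.63, 0.69 and 0.70. They ranked 372, 199 and 170 among all genes tested. Without the 2 farthest libraries their r fell to 0.56, 0.28 and 0.54.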

How the data were processed

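Per the labels and the study's methods, polyadenylated RNA went into a directional kit, and the authors aligned single-end reads with STAR 2.7.3a to GRCm38.p6. They deposited raw counts for 55421 Ensembl genes, with no normalization; which strand column of STAR was taken is not given in the sources used here. Of these genes, 55240 had an entry in the GENCODE annotation used for symbols and exon lengths. The lowest count of any of the 9 genes was 137.

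In R 4.3.3 with edgeR 4.0.16, genes were filtered with filterByExpr, scaled by TMM (factors 0.934 to 1.06) and fitted with one coefficient per group over all 12 libraries (8 residual degrees of freedom). Comparisons used the two-sided quasi-likelihood test, with p adjusted by Benjamini-Hochberg (15999 genes) and a threshold of 0.05. P values measure the spread between single mice. CPM are TMM-scaled, except marker sums, which use library totals. Log2 CPM used a prior count of 2. Sequence identity was computed with biopython 1.88.

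The 9 genes and the lists were chosen with earlier results of these data known. Genes named are the 9, listed programme genes with an adjusted p under 0.05 in a comparison with controls or the highest level per kilobase in a role, the 10 genes most correlated with the granule genes, *Apoe*, and markers where their list moves with a result. *Ear14* led its role with at most 3 counts. *Id2*, *Cdh5*, *Ptprc*, *Pecam1*, the 3 genes ranked above *Prg2* and the genes with 0 counts were named after their values were seen. Alternatives were the likelihood-ratio test, DESeq2 1.42.0, RLE size factors, other filters, a replicate block, a fit without immunoglobulin and hemoglobin genes, the 2 compared groups alone and each library left out. The steps were tested on simulated data. No 2 libraries of a group agreed within counting noise.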

Additional observations from a re-analysis of the deposited data

Results flagged for a closer look

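The effect on *Gata2* differed between atherosclerosis and MI when the 2 groups were compared directly. MI minus atherosclerosis gave a log2 difference of -0.92 (adjusted p = 0.041, edgeR quasi-likelihood, Benjamini-Hochberg), and *Gata2* was lower in 3 of 3 MI libraries than in any atherosclerosis library. The adjusted p was 0.366 with the 2 groups alone, and between 0.0777 and 0.142 without atherosclerosis replicate 3 or 4 or without any one of the MI libraries. None of the 9 granule, receptor and lipoxygenase genes differed between disease groups by this test. The position of hypertension replicate 4 was not tested.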

How the results depend on the processing

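Each of the 27 log2 fold changes of the 9 genes stayed uncalled in every alternative (378 values, smallest adjusted p 0.39, *Ear1* in atherosclerosis with no low-count filter), 26 values had another sign, and 3 moved by at least the spread between mice, all without hypertension replicate 3. The log2 fold change of *Gata2* after MI changed sign without MI replicate 4, with values between -0.00451 and 0.249 when a library was left out. Genes called between atherosclerosis and controls were 81 with the likelihood-ratio test, 81 with DESeq2, 432 with no low-count filter, 7 with the replicate block, 3 with the 2 groups alone and 2 to 33 with a library left out; eosinophil programme genes were 0 with the 2 groups alone and 0 to 1 with a library left out. In hypertension no filter gave 170, and after MI 130 (with 1 programme gene, *Id2*), against 1 with the likelihood-ratio test, DESeq2 or the 2 groups alone. Atherosclerosis against hypertension gave 70, 76 and 235 by the likelihood-ratio test, DESeq2 and no filter, and 3 to 36 with a library left out. MI against hypertension gave 2, 22 and 422. MI against atherosclerosis gave 274, 301 and 790, then 22 with the replicate block, 69 without immunoglobulin and hemoglobin genes, 3 with the 2 groups alone and 8 to 92 with a library left out. The causes were not tested. Same-numbered mice deviated together with r between -0.28 and 0.30 over 18 pairs, 5 of them above 0.1. With 3 mice per group, these values cannot settle whether the numbers pair mice. The main fit used no pairing, and the replicate block called none of the 9 genes. Counting error was small at 137 counts or more, and the spread between 3 mice limits these comparisons.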
